A study of Homo sapiens with 6 samples.

Results

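The chromosome 19 zinc finger genes described here are the rows of the expression table whose name is ZNF followed by a number and at most 1 letter, whose locus is on chromosome 19, and whose counts over all libraries sum to at least 60. The rule took 226 genes of 263 such chromosome 19 rows and of 50868 genes in all. Of the rows it left out, 37 were under the minimum, and 21 of those had no count in any library. ZNF888 with 32 counts and ZNF491 with 41 lay just outside the minimum, while ZNF137P with 66 and ZNF540 with 76 lay just inside. The members comprised 220 protein-coding genes and 6 transcribed pseudogenes.

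RNA was sequenced from Huh7, a human hepatoma line with no genetic change given in the labels. Cells received P-T3H2, a cell-permeating peptide studied for its effect on the HNF4α protein (3 libraries), or, as a control, the peptide P-T3H2-2A (3 libraries). Both were given at 20 µM for 5 days, and no untreated cells are among the libraries used here. Whether the replicates were separate cultures is not stated in the labels. The p-values thus reflect the spread among these samples alone, which may be technical.

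Zinc finger proteins of this family read DNA through a row of finger repeats, each of which contacts a short stretch of bases. Most of the family on chromosome 19 also carry a KRAB domain, which binds the scaffold protein TRIM28. TRIM28 in turn brings the histone methyltransferase SETDB1, heterochromatin proteins and deacetylases, and the best known targets of this machinery are transposable elements. The genes arose largely by tandem duplication and stand side by side in clusters, often transcribed at low levels.

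Library totals ran from 20780648 to 21374732 counts with P-T3H2 and from 17434442 to 21228458 with P-T3H2-2A. The hepatoma label was borne out by the summed level of 10 hepatocyte and hepatoma markers, 31368 to 33176 CPM (counts scaled to library size) with P-T3H2 and 33698 to 34564 CPM with P-T3H2-2A. The lowest level of any of the 10 in any library was 74.5 CPM. Summed markers of immune, fibroblast, endothelial and squamous cells (13 genes) reached 25.6 to 37.8 CPM with P-T3H2 and 36.1 to 40.2 CPM with P-T3H2-2A, and 4 to 6 of the 13 were at 0 in each library. ACTA2, KRT5 and KRT14 were at 0 in all 6. Single markers differed without P-T3H2-2A replicate 3 (edgeR), a comparison in which 45.4% of all genes tested were called. CD14, CD68 and PECAM1 fell and VWF rose, 4 of the 7 tested. Of the 10 hepatoma markers 2 rose and 4 fell, and FGB (-1.99 on the log2 scale) and HNF4A (-0.69) were among those that fell. None of either list passed edgeR over 6 libraries. DESeq2 over 6 libraries called TF (adjusted p = 0.0297) and FGB (adjusted p = 0.0362), against a background of 0.859%. The part of these markers in the results was not tested. Over most of the changing genes, P-T3H2-2A replicate 3 had levels close to those of the P-T3H2 libraries. Results are therefore given for all 6 libraries as labelled and again without that library. The likeness was seen in these same data, so p-values without that library are likely too small. In bulk RNA, fewer cells expressing a gene and less RNA per cell cannot be told apart.

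The promoters of 6 members on which the results turn are shown first: ZNF69, ZNF44 and ZNF844 stand in 1 cluster and differed in direction, ZNF555 had the smallest p of all members, ZNF444 had the most counts, and ZNF264 varied most among the P-T3H2 libraries. Each sequence is the 250 bases before the RefSeq gene start (GRCh38.p14), 5′ to 3′ on the gene's strand. Capitals mark the motifs searched on both strands: CCGGAAG (an ETS factor core), CCAAT (the NF-Y box), GGGCGG (a GC box) and TATAAA, and overlapping matches run together. No entry was matched for ZNF114 and ZNF738.
ZNF69 (chr19:11887532-11887781, plus strand): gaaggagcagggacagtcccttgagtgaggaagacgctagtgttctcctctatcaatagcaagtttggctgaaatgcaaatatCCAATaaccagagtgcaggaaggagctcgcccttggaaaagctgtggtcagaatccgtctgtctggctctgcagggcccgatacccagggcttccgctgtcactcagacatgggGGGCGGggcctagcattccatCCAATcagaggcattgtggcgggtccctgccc
ZNF44 (chr19:12294884-12295133, minus strand): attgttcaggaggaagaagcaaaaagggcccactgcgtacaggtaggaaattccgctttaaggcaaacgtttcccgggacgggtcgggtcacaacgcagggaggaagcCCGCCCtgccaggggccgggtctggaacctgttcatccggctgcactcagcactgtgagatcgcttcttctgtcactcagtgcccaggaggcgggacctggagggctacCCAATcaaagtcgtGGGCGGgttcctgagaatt
ZNF844 (chr19:12064481-12064730, plus strand): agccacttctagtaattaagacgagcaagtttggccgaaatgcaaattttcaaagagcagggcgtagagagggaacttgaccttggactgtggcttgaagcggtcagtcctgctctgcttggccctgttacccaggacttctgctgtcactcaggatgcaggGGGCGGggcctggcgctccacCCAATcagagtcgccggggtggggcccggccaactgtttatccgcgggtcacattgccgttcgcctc
ZNF555 (chr19:2841225-2841474, plus strand): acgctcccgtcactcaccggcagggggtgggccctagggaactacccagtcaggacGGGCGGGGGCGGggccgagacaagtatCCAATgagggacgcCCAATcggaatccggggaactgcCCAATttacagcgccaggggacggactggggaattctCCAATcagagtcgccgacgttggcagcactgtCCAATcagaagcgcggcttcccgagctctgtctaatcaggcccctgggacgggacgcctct
ZNF444 (chr19:56141037-56141286, plus strand): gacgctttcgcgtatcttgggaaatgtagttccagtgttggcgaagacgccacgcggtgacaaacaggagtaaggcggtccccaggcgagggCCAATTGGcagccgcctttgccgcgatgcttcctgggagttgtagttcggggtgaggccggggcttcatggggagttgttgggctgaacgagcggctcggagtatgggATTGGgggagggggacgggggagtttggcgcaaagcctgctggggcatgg
ZNF264 (chr19:57191250-57191499, plus strand): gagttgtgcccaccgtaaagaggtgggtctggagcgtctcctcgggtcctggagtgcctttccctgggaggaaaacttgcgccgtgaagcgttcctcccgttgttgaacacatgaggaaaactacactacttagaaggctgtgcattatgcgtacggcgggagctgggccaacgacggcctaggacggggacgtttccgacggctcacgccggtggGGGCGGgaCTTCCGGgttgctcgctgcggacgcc

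ZNF69, ZNF44 and ZNF844 each had a CCAAT box on the gene's strand, the nearest beginning 32, 33 and 67 bases before the start, and a GC box close to it. The ZNF69 and ZNF844 windows shared a run of 13 bases, and those of ZNF844 and ZNF555 shared a run of 16, the longest among the 15 pairs. ZNF555 held 5 CCAAT boxes. ZNF264 had an ETS core beginning 26 bases before the start.

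RefSeq promoter windows of 300 bases (250 before and 50 after the start) were matched for 197 of the 226 members. The ETS core was present in 90 of them (45.7%), against 37.2% for ZNF genes on other chromosomes, 18.1% for the other chromosome 19 genes and 10.7% of all 27305 promoters. A CCAAT box was present in 53.8% of members and 35.7% of all promoters. The CCAAT shares were 43.7% for ZNF genes on other chromosomes and 40.4% for other chromosome 19 genes. A GC box was present in 67.0% of members, 63.9% of ZNF genes on other chromosomes, 76.4% of other chromosome 19 genes and 44.6% of all promoters. TATAAA was found in 4 members (2.03%), against 3.83% of ZNF genes on other chromosomes, 6.19% of other chromosome 19 genes and 12% of all promoters. The set of all promoters had no count minimum. A match is a run of letters and says nothing of binding.

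The members were expressed at low levels. Their median was 0.754 FPKM (fragments scaled to gene length and library size), and 138 of 226 averaged under 1 FPKM over the 6 libraries. Per length, ZNF787 was the highest at 33.7 FPKM, followed by ZNF146 at 17.3 FPKM and ZNF428 at 12.7 FPKM. ZNF146 encodes a protein made almost wholly of fingers, without a KRAB domain. The gene models were long and poor in GC. Their median length was 9136 bases against 7034 for the other genes of at least 60 counts. Their median GC content was 42.2% against 48.1%. For ZNF genes on other chromosomes these medians were 9796.5 bases and 45.1%, so long models were not particular to the members. The remaining chromosome 19 genes had a median GC content of 59.5%. Members under 45% GC numbered 164.

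Over all 6 libraries, none of the 226 members passed edgeR's quasi-likelihood test at an adjusted p of 0.05, and all 226 had passed the filter on low counts. The background was 0.00627% (1 gene of 15946). The smallest adjusted p of a member was 0.275, and DESeq2 also called none, against a background of 0.859%. At an unadjusted p under 0.05, 9 members were higher and 10 lower, together 8.41% of members, against 18% of all genes (6.58% higher and 11.5% lower) and 8.52% of ZNF genes on other chromosomes. The P-T3H2 and P-T3H2-2A libraries did not overlap for 40 members (17.7%), 27 higher and 13 lower, against a background of 23.5% (11.8% higher and 11.6% lower). Of the members, 11.9% were higher without overlap, close to the background, and 5.75% were lower.

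Summed over all members, the level was 2715, 2631 and 2696 CPM in the P-T3H2 libraries, against 2555, 2551 and 2662 CPM for P-T3H2-2A. The groups overlapped, since P-T3H2-2A replicate 3 stood above P-T3H2 replicate 2. The means were 2681 ± 44.3 CPM with P-T3H2 and 2589 ± 62.9 CPM with P-T3H2-2A (SD, n = 3 each), a difference of 3.53%, or 5.01% without P-T3H2-2A replicate 3. The median log2 fold change of the members was 0.04, beside -0.00 for all genes tested, 0.05 for ZNF genes on other chromosomes and 0.00 for other chromosome 19 genes. Of the members, 129 had a positive log2 fold change and 97 a negative one.

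Without P-T3H2-2A replicate 3, 50 of 226 members (22.1%) were called by edgeR, 30 higher and 20 lower with P-T3H2. The background was 45.4% (7390 of 16281 genes), 22.6% higher and 22.8% lower. DESeq2 called 42 members, 24 higher and 18 lower, against a background of 42.5% (21.1% higher and 21.4% lower). ZNF genes on other chromosomes were called at 32.1% (72 of 224) and other chromosome 19 genes at 45.7% (388 of 849). Of all 226 members, 10 (4.42%) were called and changed at least 2-fold, against 10.6% of all genes tested. The median log2 fold change was 0.57 among the 30 higher members and -0.68 among the 20 lower ones. The median over all members was 0.09.

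At each level of expression, members and ZNF genes on other chromosomes were both called at lower shares than all genes. In this comparison without P-T3H2-2A replicate 3, 11 of 84 members under 5 CPM were called (13.1%), against 19% of ZNF genes on other chromosomes and 27.7% of all genes of that level. Between 5 and 20 CPM the shares were 29.5% of members (33 of 112), 37.1% of ZNF genes on other chromosomes and 44.8% of all genes. At 20 CPM or more they were 20% of members (6 of 30), 32.5% of ZNF genes on other chromosomes and 56.6% of all genes. No test of these shares was made. Standard errors of the log2 fold change had a median of 0.174 for members and 0.121 for all genes, and the median size of the log2 fold change was 0.31 for members and 0.36 for all genes.

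**Figure D1:**
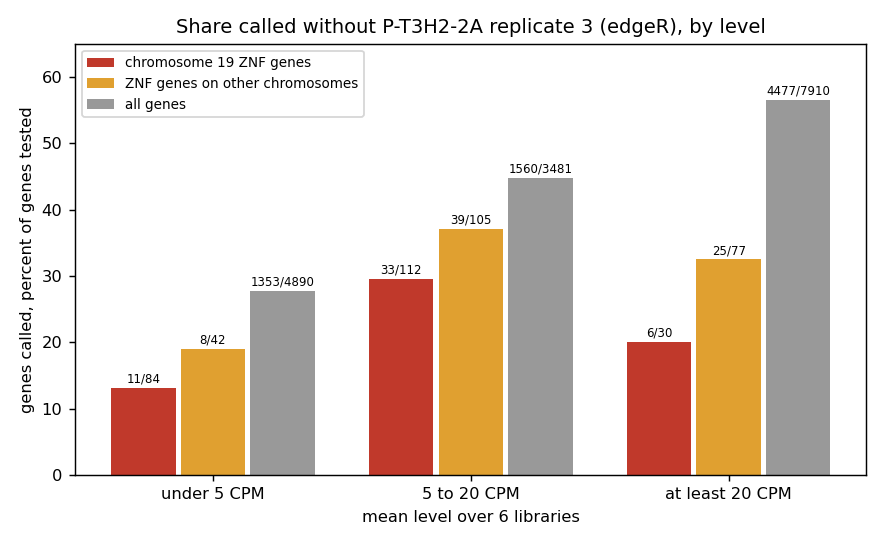
Share of genes called by edgeR without P-T3H2-2A replicate 3 (y axis, percent of genes tested) at 3 levels of mean CPM (x axis), for chromosome 19 ZNF genes (red), ZNF genes on other chromosomes (yellow) and all genes (grey). Numbers over the bars are genes called and genes tested. The red bars, at 13.1%, 29.5% and 20%, and the yellow bars, at 19%, 37.1% and 32.5%, are below the grey ones, at 27.7%, 44.8% and 56.6%.

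Where P-T3H2-2A replicate 3 lay was also read member by member. On a log2 scale on which 0 is the mean of P-T3H2-2A replicates 1 and 2 and 1 is the P-T3H2 mean, the median position of that library over the 50 called members was 0.895, beside 0.938 over all called genes. It stood nearer the P-T3H2 mean for 45 of the 50 members (90%), against 93.2% of all called genes. The 5 members for which it stood nearer the other P-T3H2-2A libraries were ZNF30, ZNF256, ZNF579, ZNF555 and ZNF44. With P-T3H2-2A replicate 3 as the only control, no member was called, against a background of 0.368%.

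**Figure D2:**
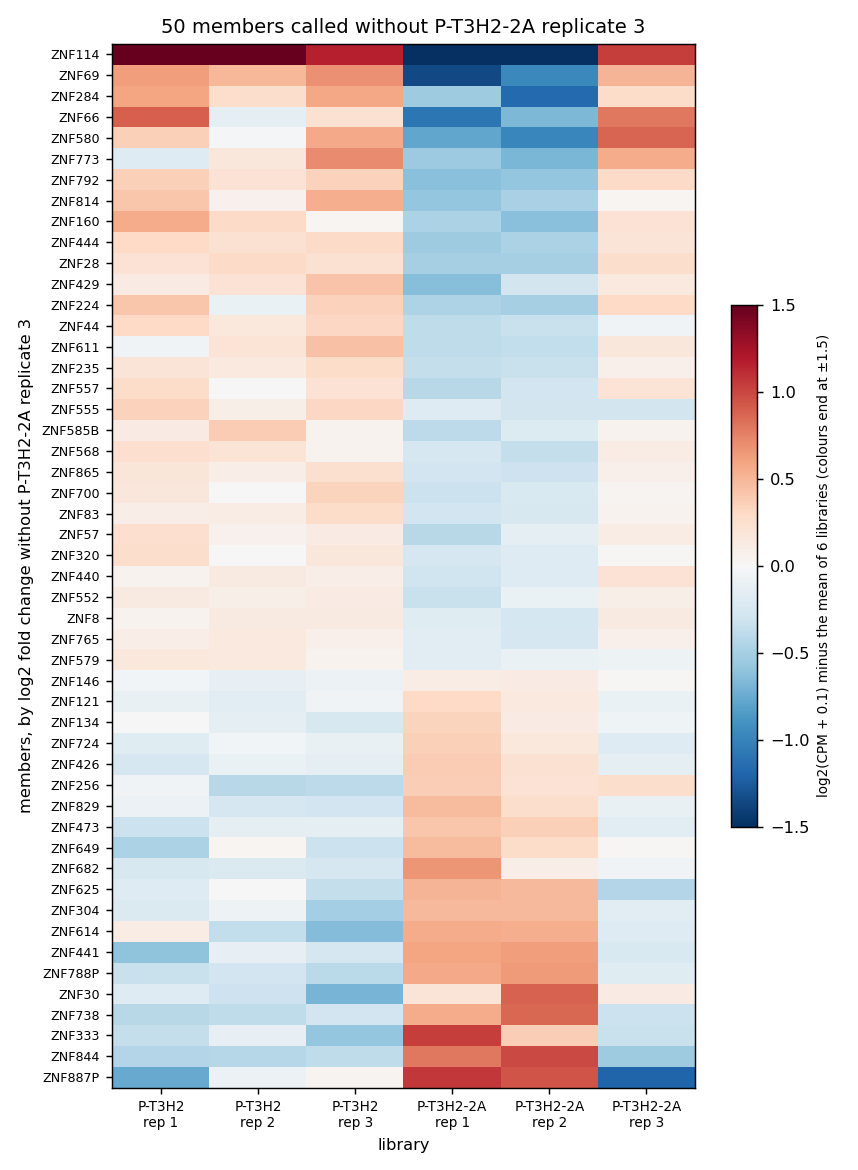
Level of the 50 members called without P-T3H2-2A replicate 3 in each library, as log2(CPM + 0.1) minus the mean of the 6 libraries (colour scale ending at ±1.5); rows are ordered by log2 fold change and columns are libraries. The column of P-T3H2-2A replicate 3 resembles the P-T3H2 columns for most members, with exceptions such as ZNF555 and ZNF256.

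ZNF114 had the largest fold change of all members in both comparisons. It had 10.9, 12.8 and 7.15 CPM with P-T3H2, against 0.578, 0.148 and 6.54 CPM with P-T3H2-2A replicates 1, 2 and 3. These levels rest on 235, 266 and 152 counts with P-T3H2 and on 10, 3 and 139 counts with P-T3H2-2A. All P-T3H2 libraries were above all P-T3H2-2A libraries, though replicate 3 of the control came close to the lowest P-T3H2 library. On the log2 scale it was higher by 2.06 ± 1.04 (standard error) over 6 libraries (edgeR, adjusted p = 0.290), and by 4.86 ± 0.529 without P-T3H2-2A replicate 3 (edgeR, adjusted p = 0.00119). The gene (ENSG00000178150, chromosome 19, 48172318 to 48287608, plus strand, GRCh38) overlaps CARD8, ZSWIM9 and CARD8-AS1. CARD8, an inflammasome sensor, had 16.1, 14.9 and 14.6 CPM with P-T3H2 and 15.02, 15.8 and 18.5 CPM with P-T3H2-2A. EMP3, an epithelial membrane protein gene close by on the chromosome, had 9.40, 6.65 and 8.10 CPM with P-T3H2 and 1.33, 1.09 and 9.56 CPM with P-T3H2-2A, so that its control replicate 3 also stood with the P-T3H2 libraries.

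ZNF69 (chromosome 19, 11887784 to 11914329, plus strand) had 12.4, 11.3 and 12.9 CPM with P-T3H2, and 3.06, 4.05 and 11.4 CPM with P-T3H2-2A. The groups overlapped, because P-T3H2-2A replicate 3 was above the lowest P-T3H2 library. Means were 12.2 ± 0.798 CPM with P-T3H2 and 6.19 ± 4.58 CPM with P-T3H2-2A (SD, n = 3 each). The log2 fold change was 0.97 as labelled (edgeR, adjusted p = 0.283), and without P-T3H2-2A replicate 3 it rose by 1.77 ± 0.156 (standard error; edgeR, adjusted p = 0.000180).

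Other members that were called and rose at least 2-fold without P-T3H2-2A replicate 3 were ZNF284, ZNF66 and ZNF580. ZNF284 had 7.45, 5.88 and 7.34 CPM with P-T3H2, against 3.35, 2.13 and 5.93 CPM with P-T3H2-2A. ZNF66 and ZNF580 had log2 fold changes of 1.32 and 1.22 in that comparison and of 0.49 and 0.36 over 6 libraries. For ZNF580, P-T3H2-2A replicate 3 had the highest level of all 6 libraries at 10.0 CPM. ZNF814 had 3.77, 2.94 and 4.14 CPM with P-T3H2, and 1.85, 1.98 and 2.87 CPM with P-T3H2-2A, with no overlap between the groups.

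ZNF444, which encodes a SCAN domain zinc finger protein, carried the most counts of any member. It had 192, 183 and 190.3 CPM with P-T3H2, and 108, 113 and 179 CPM with P-T3H2-2A. Every P-T3H2 library was above every P-T3H2-2A library, by a small margin for replicate 3. Its log2 fold change was 0.50 as labelled (edgeR, adjusted p = 0.275) and 0.77 ± 0.0505 (standard error) without P-T3H2-2A replicate 3 (edgeR, adjusted p = 6.22e-05), the smallest adjusted p of the members.

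ZNF844 (chromosome 19, 12064699 to 12081565, plus strand) showed the opposite direction. It had 5.58, 5.64 and 5.79 CPM with P-T3H2, and 13.2, 15.2 and 5.23 CPM with P-T3H2-2A. The P-T3H2 libraries lay close together at 5.67 ± 0.106 CPM (SD, n = 3), and P-T3H2-2A replicate 3 was below all of them. The log2 fold change was -0.98 as labelled (edgeR, adjusted p = 0.275), and without that library it fell by 1.33 on the log2 scale, with 0.114 as its standard error (edgeR, adjusted p = 0.000166).

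ZNF738 had 6.84, 7.04 and 7.48 CPM with P-T3H2, and 13.6, 16.7 and 7.34 CPM with P-T3H2-2A. Its control replicate 3 lay within the range of the P-T3H2 libraries. The other members that were called and fell at least 2-fold without P-T3H2-2A replicate 3 were the pseudogene ZNF887P, ZNF333 and ZNF30. ZNF333 had 1.68, 1.98 and 1.41 CPM with P-T3H2, and 4.56, 2.82 and 1.69 CPM with P-T3H2-2A. ZNF30 had 2.33, 2.12 and 1.60 CPM with P-T3H2, and 3.06, 4.99 and 2.92 CPM with P-T3H2-2A, and its groups did not overlap.

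In a few members P-T3H2-2A replicate 3 stood nearer its own group. ZNF555 (chromosome 19, 2841435 to 2860484, plus strand) had 11.2, 9.40 and 11.01 CPM with P-T3H2, and 7.74, 7.27 and 7.25 CPM with P-T3H2-2A. The groups were apart, with means of 10.5 ± 0.994 CPM with P-T3H2 and 7.42 ± 0.278 CPM with P-T3H2-2A (SD, n = 3 each). Its log2 fold change was 0.51 ± 0.127 (standard error), with the smallest unadjusted p of the members at 0.00601 and an adjusted p of 0.275 (edgeR), and 0.49 without P-T3H2-2A replicate 3 (edgeR, adjusted p = 0.0175). ZNF44 had 14.1, 12.8 and 14.3 CPM with P-T3H2, and 8.78, 9.10 and 11.1 CPM with P-T3H2-2A, a log2 fold change of 0.51 as labelled (edgeR, adjusted p = 0.275). ZNF256 had 5.49, 4.24 and 4.33 CPM with P-T3H2, and 7.39, 6.63 and 6.87 CPM with P-T3H2-2A, a log2 fold change of -0.57 (edgeR, adjusted p = 0.275). In ZNF44 that library lay about midway between the other P-T3H2-2A libraries and the P-T3H2 mean (position 0.497). For both genes the groups did not overlap, and both passed without P-T3H2-2A replicate 3, at 0.62 for ZNF44 and -0.58 for ZNF256 on the log2 scale.

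**Figure D3:**
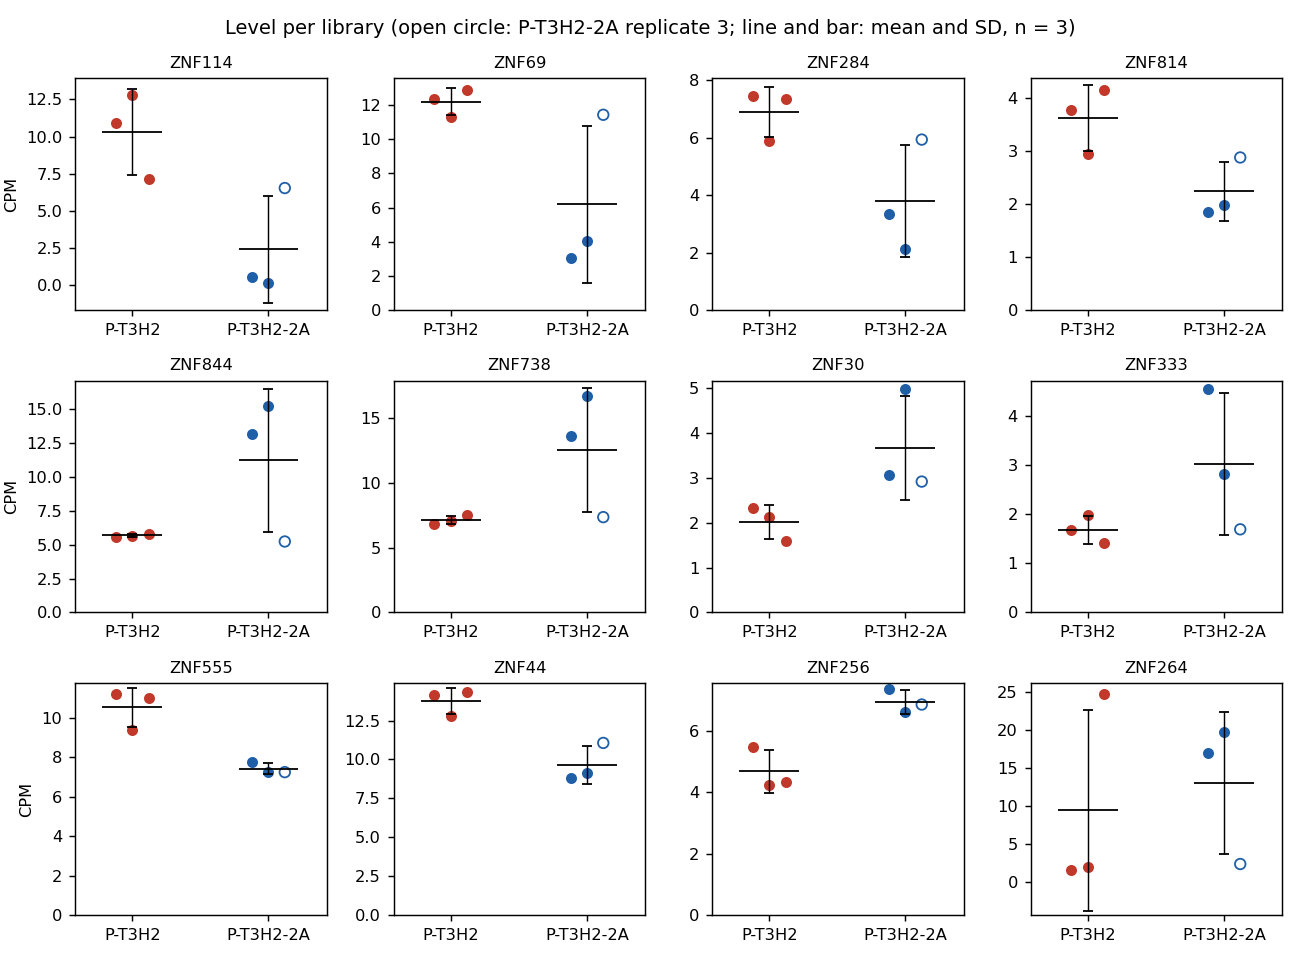
Level in CPM (y axis, linear) of 12 members in each P-T3H2 library (red) and each P-T3H2-2A library (blue); the open circle is P-T3H2-2A replicate 3, and the line and bar give the mean and SD of 3 libraries. In ZNF114, ZNF69, ZNF844 and ZNF738 the open circle lies at or near the red points, and in ZNF555 and ZNF256 it lies with the blue ones.

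The most abundant members per length differed little between the groups. ZNF787 had 134, 133 and 134 CPM with P-T3H2, and 133, 141 and 128 CPM with P-T3H2-2A. Its log2 fold change was -0.00, with a 95% interval (normal approximation) of -0.15 to 0.14. ZNF146 had 144, 136 and 139 CPM with P-T3H2, and 159, 161 and 149 CPM with P-T3H2-2A, with no overlap, a log2 fold change of -0.16 (edgeR, adjusted p = 0.279) and, without P-T3H2-2A replicate 3, of -0.20 (edgeR, adjusted p = 0.0140). ZNF428 had 34.4, 33.9 and 34.7 CPM with P-T3H2, and 31.7, 31.4 and 32.9 CPM with P-T3H2-2A, a log2 fold change of 0.10 (edgeR, adjusted p = 0.440).

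Members were then grouped by position, with a gap of over 1 Mb between neighbouring starts opening a new cluster. All chromosome 19 rows of the name pattern fell into 17 clusters, of which 15 held a member and 10 held at least 3. These 10 held 220 members. The short arm carried 73 members and the long arm 153. Cluster medians of the log2 fold change ran from -0.08 to 0.23 over 6 libraries and from -0.13 to 0.44 without P-T3H2-2A replicate 3. Both ends of the first range lay in clusters on the short arm, at 19.7 to 24.1 Mb and at 2.82 to 2.94 Mb.

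Members called in opposite directions stood together in 7 of the 10 clusters, counted without P-T3H2-2A replicate 3. Of all genes, 22.6% were called higher and 22.8% lower in that comparison, and clusters of other genes were not examined. At 11.5 to 12.6 Mb, 4 of 25 members rose (ZNF440, ZNF69, ZNF700 and ZNF44) and 5 fell (ZNF887P, ZNF441, ZNF844, ZNF788P and ZNF625). ZNF788P, a pseudogene, had 3.12, 3.23 and 2.97 CPM with P-T3H2, and 5.95, 6.23 and 3.48 CPM with P-T3H2-2A. At 19.7 to 24.1 Mb, 2 of 29 rose (ZNF66 and ZNF429) and 3 fell (ZNF682, ZNF738 and ZNF724). At 36.2 to 37.8 Mb, 2 of 26 rose (ZNF568 and ZNF585B) and 2 fell (ZNF146 and ZNF829).

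At 43.5 to 45.1 Mb, 3 of 23 rose (ZNF284, ZNF224 and ZNF235) and none fell, and ZNF235 had 6.84, 6.61 and 7.20 CPM with P-T3H2, against 4.62, 4.70 and 6.26 CPM with P-T3H2-2A. At 51.6 to 53.6 Mb, 6 of 37 rose, among them ZNF28 with 29.5, 31.1 and 29.8 CPM with P-T3H2 and 17.8, 17.9 and 30.4 CPM with P-T3H2-2A, and 2 fell (ZNF649 and ZNF614). At 55.5 to 58.5 Mb, the largest cluster with 54 members, 8 rose and 3 fell (ZNF304, ZNF134 and ZNF256). These counts are read against a background of 22.6% of all genes called higher and 22.8% called lower, and none of them was tested against it.

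**Figure D4:**
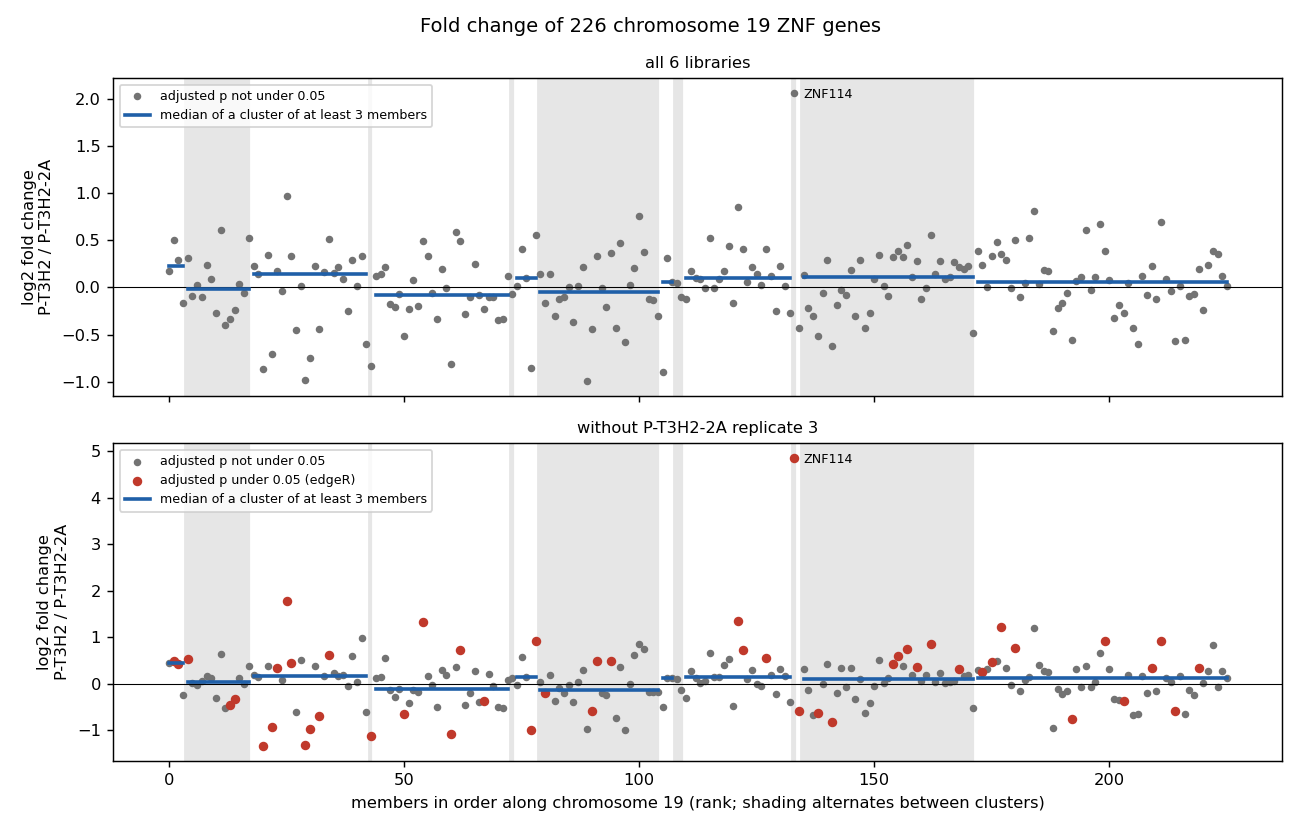
log2 fold change of the 226 members (y axis, P-T3H2 over P-T3H2-2A) in their order along chromosome 19 (x axis, rank), over all 6 libraries (top) and without P-T3H2-2A replicate 3 (bottom). Shading alternates between clusters, blue lines are medians of clusters with at least 3 members, and red points passed edgeR at an adjusted p under 0.05. Cluster medians stay between -0.13 and 0.44, and red points of both directions share clusters.

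Directions of neighbouring members were also compared. Among 185 pairs of adjacent members averaging at least 2 CPM in the same cluster, 96 had log2 fold changes of the same sign over 6 libraries (51.9%) and 101 without P-T3H2-2A replicate 3 (54.6%). Pearson's r between neighbours was 0.02 and 0.03 across these gene pairs, which share libraries and are not independent. Across members, Spearman's rho of the log2 fold change without P-T3H2-2A replicate 3 was 0.00 with gene length, 0.09 with GC content and 0.04 with mean level.

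Some members varied widely among libraries of 1 group. Of 200 members averaging at least 2 CPM, 17 (8.5%) spanned at least 2-fold over the P-T3H2 libraries. The background was 2.72% of all genes averaging at least 2 CPM, and levels were not matched beyond that minimum. The median level was 6.75 CPM for all members and 20.4 CPM for the other genes of at least 60 counts. The part of level in this difference was not tested. ZNF264 had 1.58, 2.03 and 24.8 CPM with P-T3H2, and 17.0, 19.7 and 2.40 CPM with P-T3H2-2A, from 34, 42 and 526 counts with P-T3H2 and 295, 399 and 51 counts with P-T3H2-2A. Its high libraries were P-T3H2 replicate 3 and P-T3H2-2A replicates 1 and 2, and no library held an intermediate level. ZNF583 had 1.40, 6.99 and 7.44 CPM with P-T3H2, and 7.86, 1.78 and 1.46 CPM with P-T3H2-2A, a different set of high libraries. Neither gene passed in either comparison. No gene of at least 60 counts overlapped ZNF264, whereas the antisense gene ZNF582-AS1 overlapped ZNF583.

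Libraries of 1 group also differed in other members with large fold changes. ZNF546 had 1.16, 2.80 and 0.518 CPM with P-T3H2, and 1.33, 2.82 and 4.14 CPM with P-T3H2-2A, and ZNF419 had 4.37, 4.29 and 10.7 CPM with P-T3H2, and 4.28, 3.86 and 4.0 CPM with P-T3H2-2A. ZNF419 owed its log2 fold change of 0.68 mainly to P-T3H2 replicate 3, and it was 0.10 without that library. ZNF527 had 2.47, 2.46 and 0.847 CPM with P-T3H2, and 4.16, 3.56 and 0.989 CPM with P-T3H2-2A. None of these 3 members passed in either comparison.

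The proteins that KRAB zinc finger proteins recruit were read from a list of 38 genes, of which 37 were tested and ZFP57, an imprinting factor, was at 0 in all libraries. None passed over 6 libraries (edgeR and DESeq2), with 1 higher and 4 lower at an unadjusted p under 0.05 in edgeR and a median log2 fold change of -0.02. Without P-T3H2-2A replicate 3, 14 of 37 (37.8%) were called, 6 higher and 8 lower, beside the background of 45.4%. The median was then -0.04.

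TRIM28, the scaffold itself, had 289.7, 309 and 286 CPM with P-T3H2, and 382, 391 and 299.5 CPM with P-T3H2-2A. The groups overlapped through P-T3H2-2A replicate 3, and the log2 fold change was -0.28 as labelled (edgeR, adjusted p = 0.275) and -0.39 without that library (edgeR, adjusted p = 0.000919). SETDB1, the histone methyltransferase, had 39.9, 45.4 and 42.1 CPM with P-T3H2, and 42.5, 41.4 and 45.4 CPM with P-T3H2-2A, a log2 fold change of -0.02 that was 0.02 without P-T3H2-2A replicate 3. In the comparison without that library, the histone methyltransferase gene SUV39H1 fell by 0.56 on the log2 scale.

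The 2 genes of this list with the smallest p act on DNA methylation. DNMT3B, a de novo DNA methyltransferase, had 7.45, 9.69 and 6.64 CPM with P-T3H2, and 29.9, 29.2 and 9.18 CPM with P-T3H2-2A. UHRF1, which guides maintenance methylation at replication, had 31.3, 35.4 and 33.9 CPM with P-T3H2, and 63.1, 66.5 and 39.4 CPM with P-T3H2-2A. In both genes the first and second control libraries stood highest and replicate 3 lay near the P-T3H2 libraries. The log2 fold changes were -1.52 for DNMT3B and -0.75 for UHRF1 (edgeR, adjusted p = 0.275 for each), and without P-T3H2-2A replicate 3 they were -1.90 and -0.95 (edgeR, adjusted p = 0.000142 and 0.000123). The genes that rose in that comparison were CHD3, MTA3, GATAD2B, PPHLN1, MORC2 and ATRX, among which the NuRD subunit gene MTA3 had the largest log2 fold change, 0.55.

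**Figure D5:**
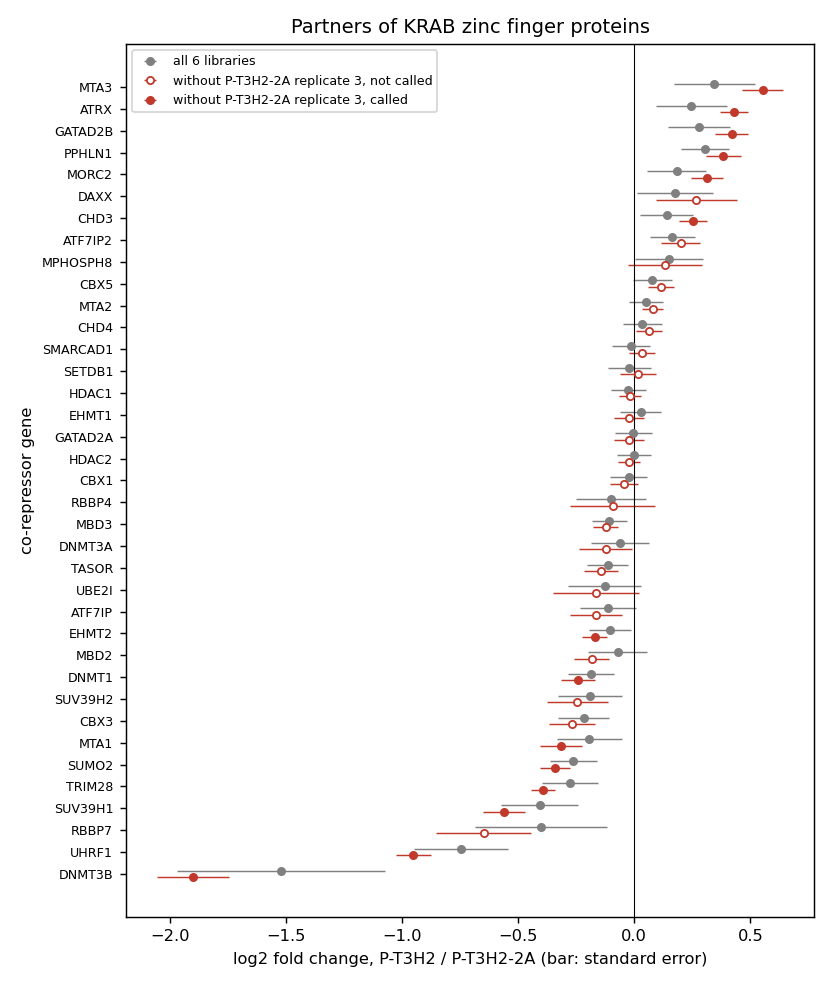
log2 fold change (x axis, P-T3H2 over P-T3H2-2A) of the 37 co-repressor genes tested (y axis), over all 6 libraries (grey) and without P-T3H2-2A replicate 3 (red, filled where edgeR's adjusted p was under 0.05); bars are standard errors. DNMT3B and UHRF1 lie furthest to the left, at -1.52 and -0.75 over 6 libraries.

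Of 10 members with well studied roles, chosen for that after their values were seen, none passed over 6 libraries. With P-T3H2-2A replicate 3 left out, edgeR called 3 of the 10, of which 1 was higher and 2 were lower. Among all genes tested, 45.4% were called in that comparison, 22.6% higher and 22.8% lower. The count of 3 was not tested against this background. ZNF91 and ZNF93 encode repressors of primate retroelements. ZNF91 had 82.2, 39.0 and 43.0 CPM with P-T3H2, and 60.6, 34.9 and 80.3 CPM with P-T3H2-2A, with an SD of 23.8 CPM with P-T3H2 and 22.8 CPM with P-T3H2-2A (n = 3 each). ZNF93 had 27.8, 31.6 and 31.0 CPM with P-T3H2, and 31.9, 33.5 and 29.2 CPM with P-T3H2-2A. ZNF274, whose protein binds the 3′ ends of other zinc finger genes, had 31.3, 31.6 and 29.3 CPM with P-T3H2, and 32.8, 34.4 and 30.8 CPM with P-T3H2-2A. None of the 3 passed in either comparison. ZNF224, which encodes a repressor of the aldolase A gene, had 17.8, 12.4 and 17.0 CPM with P-T3H2, and 9.65, 9.44 and 16.5 CPM with P-T3H2-2A, and rose by 0.72 on the log2 scale without P-T3H2-2A replicate 3 (edgeR, adjusted p = 0.0110). ZNF304, a KRAB repressor gene, had 12.4, 13.6 and 10.1 CPM with P-T3H2, and 20.2, 20.2 and 12.8 CPM with P-T3H2-2A, and fell by 0.75 in that comparison (edgeR, adjusted p = 0.00365). ZNF146 was the other that fell. The imprinted gene ZNF331 had a log2 fold change of -0.49 over 6 libraries and -0.52 without P-T3H2-2A replicate 3 (edgeR, adjusted p = 0.127). ZNF420, ZNF382 and ZNF675 had log2 fold changes of -0.00, -0.10 and -0.10 over 6 libraries.

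Reads could be shared between members and their neighbours. Another gene of at least 60 counts overlapped 96 of the 226 members, 48 on the same strand and 60 on the opposite one. Of these 96, 20 were among the 50 members called without P-T3H2-2A replicate 3. Over all members 22.1% were called in that comparison, against 45.4% of all genes. The strand setting of the counting is not given in the sources used here, so reads of antisense partners cannot be told apart. By sequence, 21 members had over 10% of the 50-base stretches of their transcripts in common with another ZNF gene, and 6 of these were called, so their values are uncertain. The median over all members was 0.433%.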

How the data were processed

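RNA-seq libraries of Huh7 cells treated with P-T3H2 or P-T3H2-2A (3 each, grouped by title) were used. The authors deposited whole-number counts and FPKM per gene, per the file headers. The submitters' processing notes list HISAT2 2.0.4, StringTie 1.3.3b and edgeR, with no role for any. These notes name a mouse build, but the gene IDs are human: 50111 of 50868, all 226 members included, are in GENCODE release 29 (GRCh38), and 212 members have its coordinates. The 2 library kits in the labels are not tied to libraries. Molecular identifiers are not mentioned, and library totals of 17434442 to 21374732 set the counting error.

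Counts of the whole table were fitted in R 4.3.3 with edgeR 4.0.16: filterByExpr (minimum count 10, total 15), TMM scaling, robust quasi-likelihood test, group as the only term, Benjamini-Hochberg adjustment over all genes, threshold 0.05. The standard error is the log2 fold change divided by the root of the F statistic. The procedure was tested on simulated data. CPM values are scaled by total and TMM factor. Named members are the 5 highest and the 5 lowest fold changes (mean of at least 2 CPM) with all libraries and without P-T3H2-2A replicate 3, the smallest p of each cluster of at least 3 members and the 3 highest FPKM, with TRIM28, SETDB1 and the 2 co-repressor genes of smallest p. Members called without P-T3H2-2A replicate 3, members named by cluster, by known role or by their spread, EMP3 and CARD8 were chosen after their values were seen. The members and lists were chosen with earlier results of these data known.

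Alternatives were DESeq2 1.42.0, limma 3.58.1 (voom on counts; trend on FPKM after adding 1 or 0.1 and taking log2, with a filter of 1 FPKM in at least 3 libraries or none), other scalings, other filters, a GC and length trend, the replicate number as a block, each library left out, and a cluster gap of 0.5 Mb. Added after the data were seen were P-T3H2-2A replicate 3 as the only control, with its spread assumed equal to that of P-T3H2, and DESeq2 without it.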

Additional observations from a re-analysis of the deposited data

How the results depend on the processing

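Over 6 libraries no member passed under any alternative fit run on all of them (edgeR, DESeq2 or limma; 93 members met the FPKM filter). Without P-T3H2-2A replicate 3, 50 members passed, 53 with a GC and length trend removed as well, and 42 with DESeq2. For the co-repressor list these counts were 14, 17 and 15. In the same order, 45.4%, 45.4% and 42.5% of all genes tested passed. Leaving out 1 library at a time gave 0 to 50 members, 0 to 14 co-repressor genes and a median log2 fold change of the members between 0.0117 and 0.0938. The last was 0.0869 without P-T3H2 replicate 2. The median was 0.0929 without P-T3H2-2A replicate 3 and with GC and length removed, 0.0932 with DESeq2 without that library, 0.0993 among members of at least 5 CPM and 0.0795 among the 190 members of at least 300 counts. With P-T3H2-2A replicate 3 as the only control, the direction turned for 12 of the 50 members called without it. Among members named by rule it turned for ZNF844 (0.12), ZNF527 (0.96), ZNF66 (-0.40), ZNF580 (-0.56) and ZNF787 (0.060). ZNF787 was -0.13 with GC and length removed and, without P-T3H2-2A replicate 3 as well, -0.19 (edgeR, adjusted p = 0.0156), past the threshold there. It turned with library totals (0.00034), log2(FPKM + 0.1) (0.0014), log2(FPKM + 1) with and without the filter (0.0014), at least 5 CPM (0.0083), and without P-T3H2 replicate 2 (0.00041) or P-T3H2-2A replicate 2 (0.028), and ran from -0.037 to 0.028 with 1 library left out. SETDB1 turned without P-T3H2 replicate 1 (0.023) and without P-T3H2-2A replicate 3 by edgeR (0.017), with GC and length (0.029) and by DESeq2 (0.016), and ran from -0.070 to 0.023 with 1 library left out. The cause was not tested. Same-numbered libraries deviated with correlations of -0.05, 0.16 and 0.11, against -0.19 to 0.13 for differently numbered ones. With 3 libraries per group, these values cannot decide whether the numbers pair the libraries. With the replicate number as a block 0 members were called, with a median of 0.05. A cluster gap of 0.5 Mb gave 21 clusters, with medians from -0.08 to 0.26 over 6 libraries. Low counts limit precision: the median member had 834 counts over all libraries.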
